A study of Rattus norvegicus with 60 samples.

Results

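Several genes that muscle uses to set the pace of protein breakdown were followed over the early hours after a blunt injury of rat skeletal muscle. They were chosen by name: the ubiquitin ligases Fbxo32, Trim63 and Fbxo30, the transcription factors Foxo1, Foxo3 and Klf15, and the mTORC1 inhibitor Ddit4. The choice was made with earlier results of these data known. All 7 were among the 20662 genes of the deposited count table and among the 17155 genes with at least 5 reads in total that were tested. RNA was sequenced from muscle of male Sprague-Dawley rats, 6 to 7 weeks old. In the injured groups a weight was dropped onto the depilated right hind limb under chloral hydrate, and the wound site was sampled at one of 7 times from 4 to 48 h later. The control rats were neither injured nor anesthetized before they were killed, so the injury, the anesthesia and the depilation cannot be told apart in a comparison with them. There were 6 control libraries. The 4 h and 20 h groups held 7 libraries each and the groups of 8, 12, 16, 24 and 48 h held 8 each, and each library came from a different rat.

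The columns of the count table were grouped by their position, because their headings are displaced against the library names of the study's supplementary table. Of the 60 columns, 49 matched a named library in that table, and all 49 lay in the group of their position, while 9 lay in the group of their heading. The other 11 columns rest on position alone, since the copy of that table used here held 49 libraries and each of them was matched. At 48 h the study kept 6 libraries but the copy held 2, so some columns there had none to match. The study left out libraries that it judged abnormal before its own tests, whereas all columns are kept here. Except in the group of 48 h, the unmatched columns are as many as the libraries left out of each group, and whether they are the same libraries was not tested. They are 6 of the 8 columns of 48 h, 2 of 12 h, and 1 each of 4, 8 and 20 h. With the 49 matched columns alone, 5, 5, 5, 4, 6, 3 and 0 of the 7 genes were called against the controls in order of time, and 2 libraries are then left at 48 h. In that fit 46.8%, 52.4%, 35.3%, 41.4%, 28.5%, 46.1% and 28.8% of all genes were called in either direction. Column totals ran from 16372673 to 34931323 reads with a median of 32598736.5, and the 24 columns with the lower totals were spread evenly, 3 to each group. Each column was also compared with the mean profile of every group over all abundant genes. Of the matched columns 41 of 49, and of the unmatched 5 of 11, were closest to their own group. Among the unmatched, the sixth at 12 h and the fourth at 20 h were closest to the control mean (Spearman's correlation 0.972 and 0.983, against 0.924 and 0.961 with their own groups), the first at 4 h to the 8 h mean (0.910 against 0.893), the eighth at 12 h to the 16 h mean (0.969 against 0.957), and the second and the sixth at 48 h to the 20 h mean. The label of the extraction protocol names retina. In any library the retinal genes Sag, Pde6b, Rcvrn and Crx had at most 14, 18, 4 and 0 reads, and Gnat1 had at most 181. By contrast, 9 muscle fiber genes summed to a median of 180432 CPM in the controls, where CPM are counts scaled to a common library size.

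A pair of libraries stood apart for the genes described here. Numbered by the order of columns within a group, the second library at 48 h and the first at 20 h were each the highest of their group for all 7 genes. The 7 genes summed to 8950 CPM in that 48 h library against 442 to 716 in the other 7, and to 7905 CPM in that 20 h library against 417 to 2554 in the other 6. The sixth library at 16 h was also the highest of its group for all 7 genes, and it was kept throughout. Its sum was 4556 CPM, where the group median was 1290. The second 48 h library is an unmatched column and was closest to the 20 h mean (correlation 0.950, against 0.916 with its own group). The first 20 h library is a matched one and was closest to the 16 h mean (0.944 against 0.937). For the calls that rest on them, and for some that pass only without them, the values without them are given too. The pair was picked by the levels of these same 7 genes, so leaving it out narrows the spread by choice. Libraries at the low end, such as the fourth at 20 h, were kept. Calls that pass only without the pair are therefore a description.

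In muscle, most proteins marked for degradation receive chains of ubiquitin from ligases that recognize them, and the proteasome then breaks them down. Fbxo32 (also called MAFbx) and Trim63 (also called MuRF1) are the ligases best known for rising in wasting muscle of mice and rats, in denervation, fasting and glucocorticoid excess. FoxO factors are transcription factors that activate both of them, and that insulin and IGF signaling through Akt keeps out of the nucleus. Klf15 and Ddit4 are target genes of the glucocorticoid receptor. Klf15 switches on the breakdown of branched-chain amino acids, and Ddit4 (also called REDD1) restrains the growth kinase mTORC1.

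Promoters of 5 of the 7 genes (Trim63, Fbxo30, Foxo1, Klf15 and Ddit4) were found in RefSeq on the GRCr8 build, each from 250 bases before to 50 after the start. A FoxO motif and a glucocorticoid receptor motif were searched on both strands. The FoxO core GTAAACA, with its reverse complement TGTTTAC, was found in 3.78% of 33469 promoters of the same length. The palindrome of the glucocorticoid receptor, GAACANNNTGTTC, was found in 0.0508%. The promoter of Trim63 held both, without overlap, and was 1 of 2 promoters in the table that did, whereas the other 4 held neither. It is shown with both motifs in capitals, 1 base apart, beside the promoter of Foxo1, the gene with the highest fold change of the 7, in which these letters did not occur. A match of letters is not evidence of binding, and the lack of one in this window is not evidence that binding is absent. Inexact sites and sites outside the window were not searched. The windows are chr5:151816986-151817285 on the plus strand for Trim63 and chr2:138462724-138463023 on the plus strand for Foxo1.
Trim63: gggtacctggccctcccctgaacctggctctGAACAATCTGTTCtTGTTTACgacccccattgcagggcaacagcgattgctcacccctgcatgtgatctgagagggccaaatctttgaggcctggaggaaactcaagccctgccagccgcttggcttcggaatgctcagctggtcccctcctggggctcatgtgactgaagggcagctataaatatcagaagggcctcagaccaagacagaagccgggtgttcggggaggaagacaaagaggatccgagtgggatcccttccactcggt
Foxo1: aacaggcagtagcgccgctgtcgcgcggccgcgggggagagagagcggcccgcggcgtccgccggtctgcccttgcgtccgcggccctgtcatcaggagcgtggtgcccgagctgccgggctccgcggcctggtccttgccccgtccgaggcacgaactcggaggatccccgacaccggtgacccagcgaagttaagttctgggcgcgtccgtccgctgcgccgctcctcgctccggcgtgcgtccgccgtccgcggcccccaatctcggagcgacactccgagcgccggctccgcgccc

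Most of the 7 genes were above the controls early after injury, and none passed as lower. In order of time from 4 to 48 h, 5, 4, 4, 3, 4, 1 and 3 of the 7 genes were higher than in the controls, and 0 were lower at any time (edgeR's quasi-likelihood test, Benjamini-Hochberg adjusted p below 0.05 over all genes tested). In the same order, 22.8%, 24.6%, 19.1%, 20.0%, 12.9%, 21.9% and 23.0% of all genes tested were higher, and 22.2%, 25.9%, 13.1%, 16.9%, 6.61%, 20.1% and 18.2% were lower. The share of the 7 genes called higher was thus above the background at every time except 24 h, where 1 of 7 was called. The 7 genes were chosen with earlier results of these data known, so this comparison is a description and not a test. The median log2 fold change of the 7 genes was 2.09, 1.45, 0.85, 1.10, 1.30, 0.36 and 0.68 in the same order, while that of all genes lay between -0.03 and 0.04. Leaving out the pair of libraries that stood apart gave 2 of 7 higher at 20 h and 3 at 24 h, where 11.0% and 23.1% of all genes were then higher. At 48 h, Fbxo32 was then the only one of the 7 that was higher, beside 23.3% of all genes, and Klf15 was lower. The share at 48 h was thus below the background without these libraries, and the median of the 7 genes was 0.66 at 20 h and 0.16 at 48 h. Scaling by library totals was also tried in place of the TMM factors used here. At 48 h it raised the share of higher genes among all called genes from 55.9% to 91.3%. It called 5 of the 7 genes there, beside 57.2% of all genes.

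**Figure D1:**
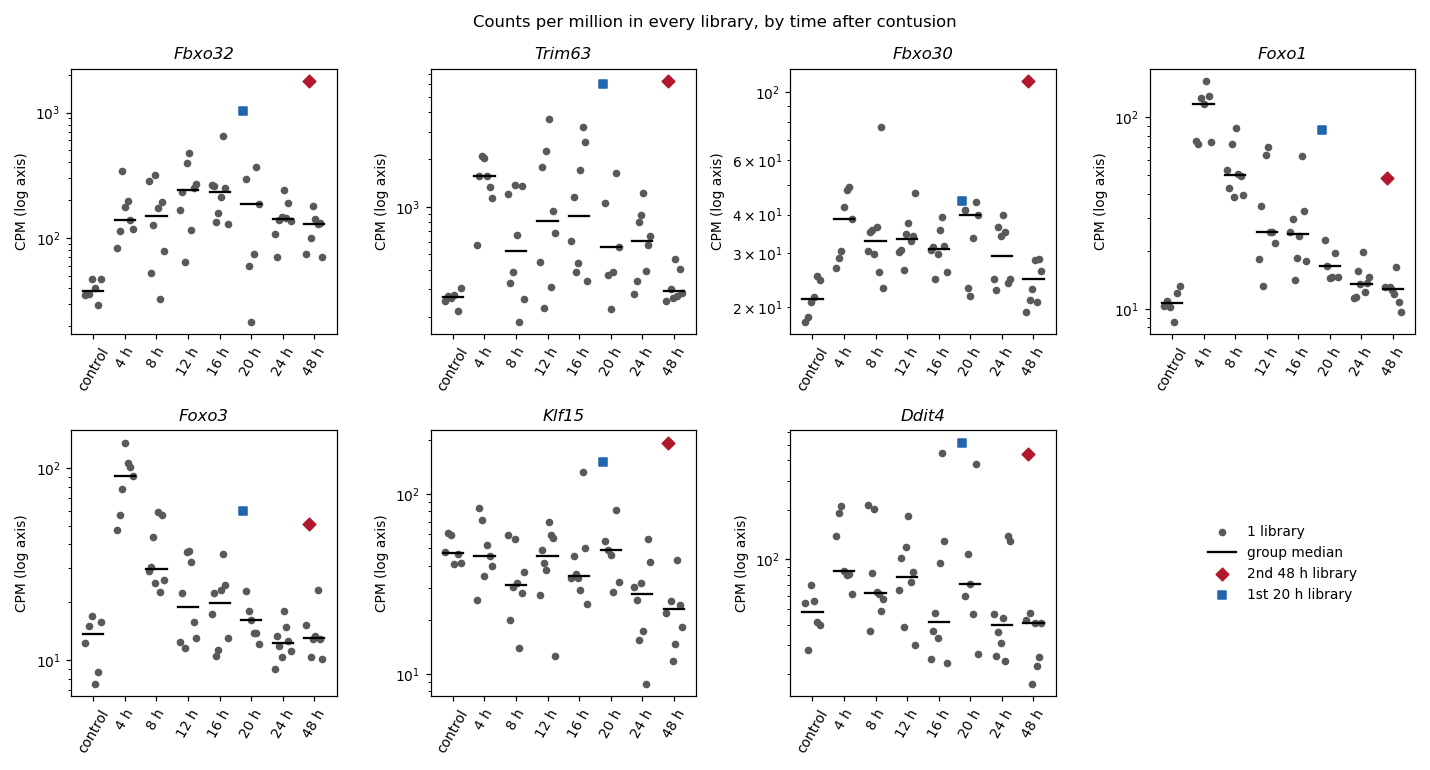
Level of each gene in CPM (log axis) in each of the 60 libraries, by group, with the group median as a bar. Foxo1 and Foxo3 have their highest medians at 4 h, the median of Fbxo32 lies above that of the controls at every time, and the second 48 h library (red diamond) and the first 20 h library (blue square) lie above the rest of their groups.

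Fbxo32 was the one ligase that was higher at every time. Its product is the substrate-binding subunit of an SCF ubiquitin ligase. In the 6 control libraries its level was 34.9, 35.7, 47.3, 40.3, 29.3 and 47.2 CPM. At 4 h it ran from 83.8 to 340 CPM (median 138), and at 8 h from 32.4 to 316 (median 150.1). All 7 libraries at 4 h lay above all controls, and 7 of 8 did so at 8 h. The 12 h libraries held 64.7 to 475 CPM (median 242) and the 16 h libraries 129 to 644 (median 232), with no overlap with the controls. The 20 h group had the widest fold range, from 21.4 to 1027 CPM (median 188). In it, 6 of 7 libraries lay above the controls, and the lowest library, which is also the one closest to the control profile, lay below all of them. At 24 h the level ran from 70.9 to 240 CPM (median 142) and at 48 h from 70.7 to 1795 (median 130.1), again with no overlap. On the log2 scale the level of Fbxo32 was 2.09 ± 0.64 (SE) above the controls at 4 h (adjusted p = 0.00593). In order of time, the later values were 2.01, 2.66, 2.71, 2.89, 1.91 and 3.07, with adjusted p of at most 0.011. Leaving out the 2 libraries gave 2.10 at 20 h and 1.60 at 48 h, with adjusted p of 0.00193 and 0.0042. With the matched columns alone the 48 h value was 1.22 (adjusted p = 0.144). Within the libraries of lower and of higher depth, the mean difference was 1.93 and 2.02 at 4 h and 2.61 and 1.71 at 48 h, and the lower-depth value at 48 h was 1.16 without the second library. No difference of Fbxo32 among the 7 injured groups was detected (adjusted p = 0.269, and 0.117 without the 2 libraries).

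Trim63 encodes a RING-finger ligase of the sarcomere that marks myosin heavy chains and other thick-filament proteins. Its level in the controls was 253, 271, 263, 277, 219 and 307 CPM. At 4 h all 7 libraries lay above them, from 575 to 2095 CPM (median 1569). The later groups each overlapped the controls except that at 16 h. The median was 523 CPM at 8 h (187 to 1383), 814 at 12 h (229 to 3590) and 880.4 at 16 h (341 to 3199). It was then 559 CPM at 20 h (227 to 6025), 611 at 24 h (279 to 1222) and 294 at 48 h (255 to 6312). The injured groups from 8 h on thus held some libraries near the control level beside others several times above it.

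Trim63 was higher by 2.48 ± 0.74 (SE) on the log2 scale at 4 h (adjusted p = 0.0048), by 2.27, 2.30 and 2.47 in turn from 12 to 20 h, and by 2.01 ± 0.71 at 48 h (adjusted p = 0.0194). At 8 h the value was 1.45 (adjusted p = 0.0779) and at 24 h 1.28 (adjusted p = 0.134), which did not pass. The call at 48 h rests on 1 library: the other 7 ran from 255 to 465 CPM, and without the second 48 h library the log2 fold change was 0.28. The call at 20 h rests on the first 20 h library in the same way, since without that library the value was 1.40 with an adjusted p of 0.163. With both libraries left out, Trim63 passed at 8 h (adjusted p = 0.0165) and at 24 h (adjusted p = 0.038). Its difference among the 7 injured groups was not detected with all libraries (adjusted p = 0.403) and passed without the 2 (adjusted p = 0.00157). With these 2 left out, Trim63 was lower at 48 h than at 4 h by 2.20 on the log2 scale (log2 fold change -2.20, adjusted p = 0.000284), whereas with all libraries the change was -0.46 (adjusted p = 0.573). Within the libraries of lower and of higher depth, the mean difference from the controls was 2.24 and 2.49 at 4 h, and 1.59 and 0.31 at 48 h. The 1.59 includes the second 48 h library, without which it was 0.083.

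Fbxo30 (also called MUSA1) is another F-box subunit of SCF ligases, known from denervated muscle of mice. Its changes were the smallest among the 3 ligases. The controls held 17.9 to 25.2 CPM (median 21.2), and the 4 h libraries 26.8 to 49.1 (median 38.7). The groups did not overlap at 4 h or at 12 h, where the range was 26.4 to 47.0 CPM. The medians at 8, 16, 20, 24 and 48 h were 32.7, 30.9, 40.0, 29.3 and 24.6 CPM. Fbxo30 was higher by 0.82 ± 0.27 on the log2 scale at 4 h (adjusted p = 0.00962), by 0.77 and 0.67 at 8 and 12 h, by 0.72 at 20 h and by 0.68 at 48 h (adjusted p = 0.0286). The value was 0.54 at 16 h and 0.49 at 24 h, with adjusted p of 0.0971 and 0.121. By depth, the mean difference from the controls at 4 h was 0.59 in the lower and 0.90 in the higher. Once the 2 libraries were left out, the value at 48 h was 0.16 (adjusted p = 0.535), and those at 16 h and 24 h passed (adjusted p = 0.0184 and 0.0275). The call at 8 h was lost without the seventh 8 h library (0.53, adjusted p = 0.0717), and that at 48 h also when any of 3 control libraries was left out. The call at 12 h was lost when any of 7 single libraries was left out, and the call at 20 h when any of 23 was, with adjusted p of up to 0.0887 and 0.107.

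The FoxO factors were highest at 4 h. Foxo1, which activates genes of protein breakdown and of fasting metabolism, had the highest fold change of the 7 at 4 h and then declined. The controls held 10.4, 11.0, 10.3, 8.53, 12.1 and 13.1 CPM. The 7 libraries at 4 h held 75.4, 72.3, 127, 118, 156, 129 and 74.8 CPM, far above all controls. From 8 to 20 h the ranges were 38.3 to 87.7, 13.1 to 70.0, 14.2 to 62.9 and 14.5 to 86.0 CPM, and in each of these groups every library lay above the highest control, at 12 h by less than the rounding. At 24 h it was 11.3 to 19.8 CPM and at 48 h 9.62 to 48.3, and both groups overlapped the controls.

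Foxo1 was higher by 3.30 ± 0.41 (SE) on the log2 scale at 4 h (9.84-fold, adjusted p = 1.7e-09), by 2.31 ± 0.38 at 8 h (adjusted p = 1.17e-06), and by 1.64, 1.36 and 1.30 in turn from 12 to 20 h. At 24 h it was 0.36 (adjusted p = 0.441, 95% interval -0.36 to 1.09) and at 48 h 0.63 (adjusted p = 0.167), or 0.19 without the 2 libraries. The call at 20 h rests on the first library of that group, since without it the value was 0.63 (adjusted p = 0.199). The fall from 4 h to 8 h was 0.99 on the log2 scale (log2 fold change -0.99 ± 0.34, adjusted p = 0.0325). It no longer passed when any of 8 single libraries was left out, with adjusted p of up to 0.0796. The change from 4 h to 48 h, a comparison added after the values were seen, was -2.67 ± 0.35 (adjusted p = 5.35e-09). Within the lower and the higher depth, the change from 4 h to 48 h was -2.13 and -3.25, and the difference from the controls at 4 h was 3.06 and 3.37. The value of -2.13 includes the second 48 h library and was -2.76 without it.

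Foxo3, the FoxO factor best known for driving Fbxo32 in mouse muscle, was also highest at 4 h. The controls held 12.3, 15.0, 17.0, 7.51, 8.62 and 15.8 CPM, and the 4 h libraries 47.5, 56.6, 77.6, 136, 107, 101 and 91.1. At 8 h the range was 22.6 to 58.6 CPM, still above all controls. From 12 h on every group overlapped the controls, with medians of 19.0, 19.9, 16.1, 12.3 and 13.1 CPM. Foxo3 was higher by 2.80 ± 0.38 on the log2 scale at 4 h (adjusted p = 1.85e-08) and by 1.53 ± 0.35 at 8 h (adjusted p = 0.00027). In order of time, the later values were 0.84 (adjusted p = 0.0575), 0.64, 0.81, 0.00 (95% interval -0.66 to 0.66) and 0.55, none of which passed. In the fit that leaves out the 2 libraries, the 12 h value passed (adjusted p = 0.0165) and the 20 h and 48 h values were 0.35 and 0.14. The change from 4 h to 8 h was -1.27 ± 0.32 (adjusted p = 0.00399), and that from 4 h to 48 h was -2.25 ± 0.33 (adjusted p = 8.26e-08). The latter was -1.56 and -2.95 within the lower and the higher depth, and the lower-depth value was -2.23 without the second 48 h library. The difference of Foxo3 from the controls at 4 h also varied with depth, at 2.01 in the lower and 3.40 in the higher. Between 4 h and 48 h, 49.2% of all genes tested differed.

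**Figure D2:**
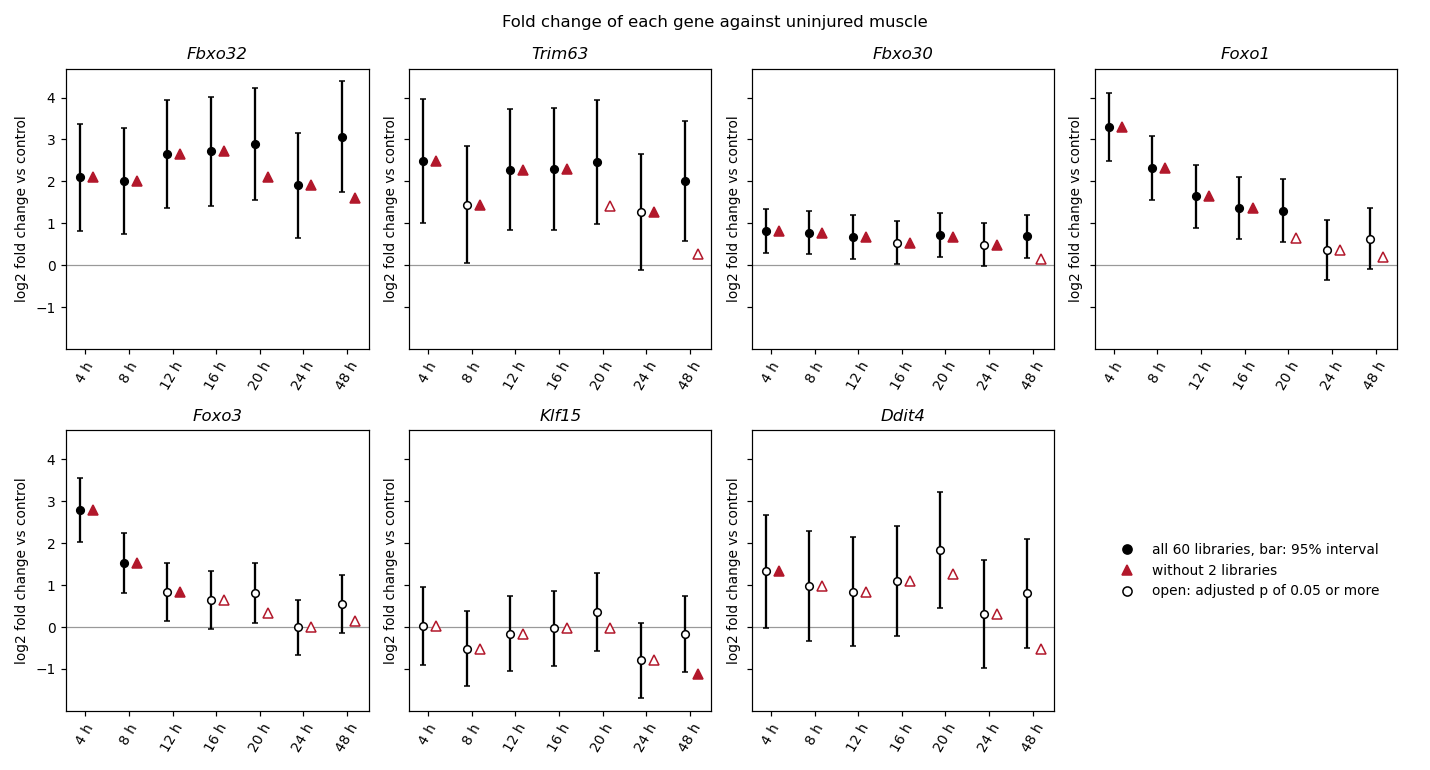
Log2 fold change of each gene against the controls by time after injury, with all libraries (black, bars are 95% intervals) and without the 2 libraries that stood apart (red triangles). Filled symbols have an adjusted p below 0.05. The values of Foxo1 decline from 3.30 to 0.36 between 4 h and 24 h, while those of Fbxo32 stay near or above 2 from 4 h to 20 h.

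Between consecutive times, Foxo1 and Foxo3 from 4 h to 8 h were the only 2 of the 42 comparisons that passed. The share of all genes tested that changed was 17.4% from 4 h to 8 h and 22.4% in the next step, followed by 0.630%, 1.91%, 5.94% and 6.10% in the steps up to 48 h. Foxo1 and Foxo3 were also the only 2 of the 7 with a difference among the injured groups (adjusted p = 6.71e-11 and 1.12e-10), where 67.2% of all genes tested had one. In the absence of the 2 libraries the falls of Foxo1 and Foxo3 from 8 h to 12 h passed too, at -0.67 and -0.70 on the log2 scale (adjusted p = 0.035 and 0.0344). All but Fbxo32 then differed among the injured groups, which makes 6 of 7.

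The different courses of Foxo1 and Fbxo32 were compared within libraries, as the difference of their log2 CPM, in a test chosen after the values were seen. The difference had a median of -0.60 at 4 h (range -1.42 to -0.10) and of -3.27 at 48 h (range -5.21 to -2.53), and the groups did not overlap. Its mean was 2.88 higher at 4 h than at 48 h (exact permutation test over 6435 regroupings, two-sided p = 0.000155, the smallest it can give). For Foxo3 against Fbxo32 the difference was 2.45 (exact p = 0.000155). Against Trim63 it was 1.22 for Foxo1 (exact p = 0.00389) and 0.79 for Foxo3 (exact p = 0.0653), which did not pass. These 4 differences were the ones tested, and the p are not adjusted. Without the second 48 h library they were 2.62, 2.19, 0.92 and 0.49, with exact p of 0.000583, 0.000583, 0.00641 and 0.111.

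**Figure D3:**
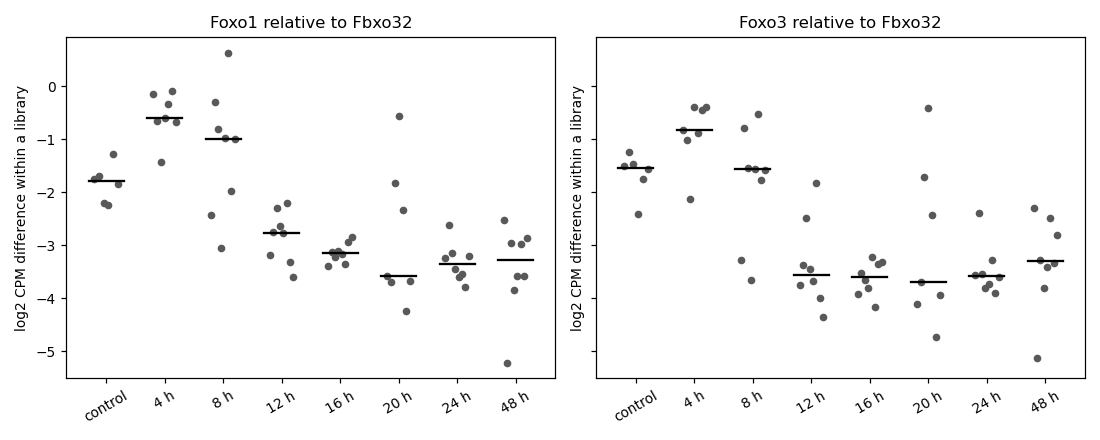
Difference of log2 CPM between Foxo1 (left) or Foxo3 (right) and Fbxo32 within each library, by group, with the group median as a bar. The median for Foxo1 is -1.79 in the controls, -0.60 at 4 h and between -2.76 and -3.58 from 12 h on.

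Klf15, the Krüppel-like factor of amino acid and glucose use, did not pass against the controls at any time. The controls ran from 40.8 to 60.7 CPM (median 47.2). The medians in order of time were 45.1, 31.1, 45.0, 35.0, 49.1, 27.9 and 23.0 CPM. All of these groups overlapped the controls. Its log2 fold change was 0.03 at 4 h (95% interval -0.90 to 0.96), -0.51 at 8 h, -0.80 at 24 h (adjusted p = 0.151) and -0.17 at 48 h (adjusted p = 0.801). The 48 h value turns on 1 library, which held 194 CPM while the other 7 held 11.8 to 43.2. With the 2 libraries left out, Klf15 was lower at 48 h by 1.12 on the log2 scale (log2 fold change -1.12, adjusted p = 0.0103). These libraries were picked by the levels of the 7 genes, so this value is a description.

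Ddit4 did not pass at any time either, and its spread within groups was wide. The controls ran from 28.1 to 69.8 CPM (median 48.1) and the 4 h libraries from 61.8 to 211 (median 85.2), with 6 of 7 above all controls. The medians from 8 h on were 62.1, 78.4, 41.7, 71.2, 40.0 and 41.0 CPM, and the highest libraries at 16, 20 and 48 h reached 441, 514 and 440 CPM. Its log2 fold change was 1.33 at 4 h (adjusted p = 0.104), followed by 0.99, 0.85 and 1.10, by 1.84 at 20 h (adjusted p = 0.0506, 95% interval 0.46 to 3.22), and by 0.30 and 0.81. Leaving out any of 15 single libraries brought the 20 h value past the threshold, while without the first 20 h library it was 1.25 (adjusted p = 0.214). The 16 h value was 0.20 without the sixth 16 h library. In the libraries of lower depth the mean difference from the controls was 1.90 at 4 h, -0.45 at 16 h and 1.02 at 48 h. In those of higher depth it was 0.76, 0.89 and -0.70. The 1.02 includes the second 48 h library, without which it was -0.083. With the 2 libraries left out, the 4 h value of 1.33 passed (adjusted p = 0.0492), and the 48 h value was -0.51 (adjusted p = 0.48).

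Most pairs of the 7 genes varied together between rats of the same group. Over the deviations of log2 CPM from the group means in 60 libraries, Pearson's r was above 0 for all 21 pairs, from 0.264 to 0.889 with a median of 0.611. It was 0.889 for Fbxo32 and Trim63, 0.851 for Foxo1 and Foxo3, and 0.773 for Klf15 and Ddit4. Over the 58 libraries without the pair that stood apart, the same 3 pairs had 0.826, 0.773 and 0.677, while the median was 0.421 and 19 of 21 pairs were above 0. The exceptions were Fbxo30 with Klf15 (-0.16) and Fbxo30 with Ddit4 (-0.09). The sixth library at 16 h was also the highest of its group for all 7 genes, and the fifth at 12 h for 6 of 7. All points share the same libraries and scaling, and no pairs of other genes were set beside them, so these values are a description.

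In the 2 libraries that stood apart, some other lists moved with the 7 genes and others did not. The 12 glucocorticoid-responsive genes in the table summed to 5638 CPM in the second 48 h library against 1320 to 1669 in the other 7, and to 6435 CPM in the first 20 h library against 1465 to 3823 in the other 6. The 18 FoxO-linked genes summed to 15907 CPM in that 48 h library against 3487 to 4388. There the 7 genes linked to Klf15, at 930 CPM, lay within the range of the others (390 to 954). The 11 IGF, insulin and Akt genes were lowest in that 48 h library, at 1001 CPM against 1251 to 1847. Its 9 muscle fiber markers, at 65371 CPM, lay within the range of the others (34860 to 113429), as did its neutrophil markers, while its fibroblast markers, at 2455 CPM, lay below it (4549 to 9069) and its adipocyte markers, at 1011 CPM, above it (326 to 599). The fiber markers of the 20 h library, at 195457 CPM, lay above the range of its group (92372 to 162093). The part of these differences in the levels of the 7 genes was not tested.

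Among 18 other ubiquitin ligases of muscle, 8, 7, 3, 6, 1, 1 and 0 were higher and 3, 3, 1, 3, 1, 5 and 5 lower, in order of time. Their median log2 fold change went from 0.39 at 4 h to -0.17 at 48 h, beside 0.00 and 0.04 over all genes. Depending on the time, 12.9% to 24.6% of all genes were higher and 6.61% to 25.9% lower. These shares are the background for the counts of the lists below too. Cblb, which marks the insulin receptor substrate IRS1 in unloaded muscle of mice, was higher by 2.15 ± 0.29 on the log2 scale at 4 h (adjusted p = 2.2e-08). Asb2, a substrate adaptor of cullin ligases, was higher by 1.05 and Traf6, an adaptor ligase of inflammatory signaling, by 0.87. At 48 h the lower ones included Fbxl22, an F-box protein of the sarcomere (-1.46 ± 0.22, adjusted p = 4.88e-07), Mul1, a mitochondrial ligase (-0.82), Fbxo40 (-0.78) and Wwp1 (-0.70). Fbxl22 was lower at every time. Without the 2 libraries the number called at 12 h was 7 in place of 4.

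Neither of the other FoxO factors passed as higher. Foxo6 was lower at every time but 20 h, with a log2 fold change of -1.18 at 4 h, -1.87 ± 0.43 at 8 h (adjusted p = 0.000235) and -1.31 at 48 h. At 20 h it was -0.97 and did not pass. Foxo4 was lower at 48 h (-0.46, adjusted p = 0.0431) and at no other time, and that value turned to 0.13 when libraries were scaled by their totals.

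Of 18 genes that FoxO factors are known to activate or that act in the same breakdown pathways, 8, 8, 6, 7, 5, 6 and 3 were higher and 3, 4, 1, 2, 0, 3 and 1 lower, in order of time. Their median log2 fold change was 0.76 at 4 h and 0.12 at 48 h. Gadd45a, a growth-arrest gene, had a log2 fold change of 2.98 ± 0.43 at 4 h (adjusted p = 7.91e-08) and of 1.25 at 48 h. Pdk4, which blocks the entry of glucose carbon into mitochondria in fasting, was higher at 4 h (2.53, adjusted p = 0.00976) and did not pass later. Ctsl, a lysosomal protease, and Eif4ebp1, the repressor of translation that mTORC1 inactivates, were higher at every time, at 1.95 and 1.18 at 48 h. Cited2 was lower at 4 h (-1.20), Pik3ip1 at 8 h (-1.59) and Txnip at 48 h (-1.26), and the autophagy genes Ulk1, Bnip3 and Gabarapl1 did not pass at any time. Without the 2 libraries, 7 of the 18 were called at 48 h in place of 4.

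**Figure D4:**
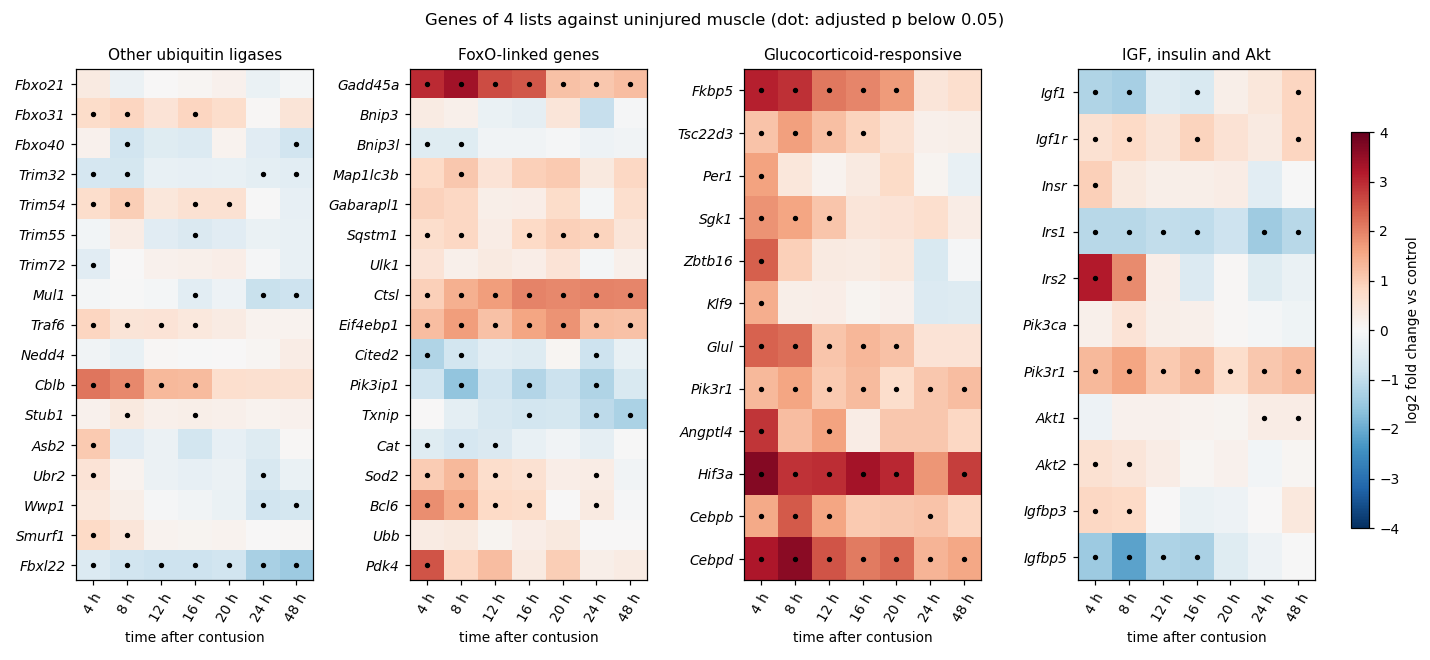
Log2 fold change against the controls for genes of 4 lists (rows) at the 7 times (columns), with a dot where the adjusted p is below 0.05. All 12 glucocorticoid-responsive genes carry a dot at 4 h and 3 do at 48 h, while Fbxl22 is lower and Pik3r1 higher at each time.

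Of 12 glucocorticoid-responsive genes in the table, all 12 were higher at 4 h and then 8, 9, 6, 5, 3 and 3 at the later times, and none was lower. Among all genes, 22.8% were higher at 4 h, 21.9% at 24 h and 23.0% at 48 h, so the counts at 24 h and 48 h were near the background. The median log2 fold change of the 12 was 2.08 at 4 h and 0.61 at 48 h. At 4 h the largest belonged to Hif3a, a regulator of the hypoxia response (3.66 ± 1.10, adjusted p = 0.00519), Cebpd, a transcription factor of the acute phase (3.22 ± 0.54), Fkbp5, a chaperone partner of the glucocorticoid receptor (3.12 ± 0.41, adjusted p = 1.11e-08), and Angptl4, an inhibitor of lipoprotein lipase (2.86 ± 0.67). At 48 h Hif3a, Cebpd and Pik3r1 were still higher, by 2.76, 1.55 and 1.24. Pik3r1, a regulatory subunit of PI3 kinase, is also in the IGF and insulin list. Several of these genes also respond to cytokines, and no hormone level was analysed here. The gene of the receptor itself was not analysed here. Without the 2 libraries, 5 were called at 24 h in place of 3.

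Of 7 genes of branched-chain amino acid and glucose use linked to Klf15, 1 was higher at 4 h, Bcat2, the first enzyme of branched-chain amino acid breakdown (1.08, adjusted p = 0.000155). None was higher later. From 8 to 48 h, 1, 1, 3, 0, 5 and 4 were lower. At 24 h they were led by Slc2a4, the insulin-responsive glucose transporter (-2.01 ± 0.32, adjusted p = 1.68e-06), the alanine transaminases Gpt (-1.80) and Gpt2 (-1.53), and Bckdhb, a subunit of the dehydrogenase of branched-chain keto acids (-0.93). At 24 h and 48 h, 9 and 8 of 9 muscle fiber markers were lower too, and their part in these values was not tested.

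Beside Ddit4, 11 genes of mTORC1 and its brakes gave 5, 4, 1, 1, 0, 1 and 2 higher and 0, 3, 1, 1, 0, 2 and 0 lower, in order of time. Sesn2, a stress-induced inhibitor of mTORC1, was higher by 0.92 at 8 h (adjusted p = 5.58e-06), and Tsc1 by 0.84 at 4 h. Ddit4l, the paralog of Ddit4, and Deptor, an inhibitor bound to mTOR, were lower at 24 h, with log2 fold changes of -1.48 and -1.31. Of 11 genes of the IGF, insulin and Akt pathway, 6, 6, 1, 2, 1, 2 and 4 were higher and 3, 3, 2, 3, 0, 1 and 1 lower. At 4 h the adaptor genes of the insulin receptor parted, with Irs2 at 3.18 ± 0.45 (adjusted p = 5.12e-08) and Irs1 at -1.12 ± 0.38 (adjusted p = 0.0122). Igf1 (-1.20) and Igfbp5 (-1.47) were lower at 4 h. Irs2 passed at 4 h and 8 h only, Irs1 at every time but 20 h.

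The tissue around these genes changed over the same hours. In bulk muscle, fewer cells of a type and less RNA per cell cannot be told apart. Of 9 muscle fiber markers, 2, 2, 2, 5, 1, 9 and 8 were lower in order of time, and none was higher. Their sum ran from 159769 to 187727 CPM in the controls, from 96022 to 201158 at 4 h and from 34860 to 113429 at 48 h. Of 9 neutrophil markers, 9, 9, 9, 8, 7, 9 and 8 were higher. Their sum ran from 3.50 to 10.2 CPM in the controls and from 610 to 2497 at 8 h. Of 10 macrophage markers, 3 were higher at 4 h and 9 at 48 h, with sums of 222 to 368 CPM in the controls and 1177 to 2935 at 48 h. The part of these cell types in the levels of the 7 genes was not tested.

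The genes with a course most like that of each of the 7 were taken by Spearman's correlation over the 60 libraries, among 11649 genes that averaged at least 50 reads per library. The libraries share the scaling, so it is a description. For Fbxo32 they were Trim63 (0.853), Tp53inp1 (0.812) and Cnppd1 (0.787), and for Trim63 they were Slc7a6 (0.861), Fbxo32 (0.853) and Tbc1d15 (0.806). The 2 ligases were thus among each other's nearest. For Fbxo30 they were Rrp12 (0.842), Pelo (0.835) and Oser1 (0.830). For Foxo1 they were Usp36 (0.939), Mafk (0.928) and Med13l (0.922), and for Foxo3 they were Zbtb16 (0.897), Tiparp (0.870) and Tns1 (0.869). Zbtb16 is one of the 12 glucocorticoid-responsive genes, as is Per1, the third for Ddit4 (0.782) after Arrdc2 (0.855) and Depp1 (0.792). For Klf15 they were Klhl38 (0.867), Lims2 (0.853) and Slc43a1 (0.847). Of the genes running the opposite way, Foxo6 was the lowest for Fbxo32 (-0.75).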

How the data were processed

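RNA of rat hind limb muscle was sequenced from 60 rats. The deposited values are raw read counts per gene, and the authors did not normalize them. To make them, according to the methods and to the processing notes of the submitters, reads were trimmed with Trimmomatic and aligned to rn6 (HISAT2 2.1.0). HTSeq 0.6.1 then counted those aligned uniquely, with reverse strand. Columns were grouped by position, since their headings are displaced. The identity of 49 columns was checked against 1288 genes of the study's supplementary table, within 0.5 read.

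Genes with at least 5 reads in total were kept. All 8 groups were fitted together with edgeR 4.0.16 (R 4.3.3, TMM scaling, quasi-likelihood test, Benjamini-Hochberg adjusted p below 0.05 over all genes tested). CPM use the TMM-scaled totals, and log2 CPM a prior count of 2. Standard errors were taken from the fold change and its F. The script was tested on simulated data. With 16372673 to 34931323 reads per library, the lowest count of any of the 7 genes was 145 reads. The members and the lists were chosen with earlier results of these data known. Named from the other lists were up to 4 genes with the largest change among those that passed, beside those needed to say which did not. A few list genes are counted but not reported here by name. The comparison of 48 h with 4 h, the within-library differences and the fit without 2 libraries were chosen after seeing the data. The alternatives were totals as scaling, DESeq2 1.42.0, other filters, matched columns only, a term for depth, leaving out each library, and a block for library numbers.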

Additional observations from a re-analysis of the deposited data

Results flagged for a closer look

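In groups of 6 to 8 libraries, the gap of the highest and of the lowest library to the next was taken as a share of the range of log2 CPM. Each set is 1 gene in 1 group. The genes share the libraries, so the sets are not independent and their count is not a test. The share was larger than Dixon's 95% value in 11 of 56 sets, each time for the highest library. At 48 h this held for the second library in all 7 genes except Foxo3, with shares of 0.711 for Fbxo32, 0.813 for Trim63, 0.769 for Fbxo30, 0.667 for Foxo1, 0.537 for Klf15 and 0.692 for Ddit4. At 20 h it held for the first library in Foxo1 (0.744) and Foxo3 (0.601). At 16 h it held for the sixth library in Fbxo32 (0.554) and Klf15 (0.578), and at 8 h for the seventh library in Fbxo30 (0.620). The cause was not tested.

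The changes of Foxo1 and Foxo3 between 4 h and 8 h, of -0.99 and -1.27 on the log2 scale, passed the test of the difference between these times (edgeR's quasi-likelihood test).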

How the results depend on the processing

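Of the 7 genes over the 7 times, 24 of 49 comparisons with the controls were called, and leaving out 1 library at a time gave 21 to 28. The calls were 5 at 4 h under each library left out, and 3 to 5 at 8 h, 3 to 5 at 12 h, 3 to 4 at 16 h, 1 to 5 at 20 h, 1 to 2 at 24 h and 2 to 3 at 48 h. The lowest at 20 h came without the first 20 h library. Those between consecutive times were 1 to 4 (2 with all) and those among the injured groups 2 to 6 (2 with all), the highest without the second 48 h library. For calls among the injured groups, the share of all genes was taken with all libraries only (67.2%), here and below. Signs turned for uncalled values only: Klf15 at 4 h (-0.14 to 0.15), 16 h (-0.45 to 0.066) and 20 h (-0.038 to 0.48), Foxo3 at 24 h (-0.13 to 0.083), Ddit4 at 24 h (-0.0049 to 0.43) and 48 h (-0.51 to 0.96), and Fbxo32 at 48 h against 4 h (-0.50 to 1.24). Without the 2 libraries that stood apart, chosen after seeing the data, the calls were 2 at 20 h, 3 at 24 h, 4 between consecutive times and 6 among injured groups, and Klf15 at 20 h (-0.021), Ddit4 at 48 h (-0.51) and Fbxo32 at 48 h against 4 h (-0.50) turned.

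Scaling by library totals moved the median of all genes at 48 h from 0.04 to 0.65 on the log2 scale. It moved the share of called genes that were higher there from 55.9% to 91.3% (from 12 h on, from 52.1% to 66.1% with TMM to 81.6% to 91.3%). It gave 5 calls at 16 h, 4 at 24 h and 5 at 48 h, beside 40.3%, 52.7% and 57.2% of all genes called. It gave 1 call between consecutive times. Under it Klf15 turned to 0.087 at 12 h, 0.23 at 16 h and 0.39 at 48 h, Trim32 to 0.11 at 24 h and 0.20 at 48 h, and Foxo4 to 0.13 at 48 h. At 48 h against 4 h, Trim63 turned to 0.085, Fbxo30 to 0.43 and Klf15 to 0.32. Foxo3 at 24 h, at 0.00, was -0.0093 with DESeq2 and -0.0090 with filterByExpr, and Klf15 at 16 h was 0.059 with a depth term. Neither DESeq2, nor another filter, nor a depth term moved a count of calls among the 7 genes by over 1.5 times. In the other lists, DESeq2 called both other FoxO factors at 4 h in place of 1, and of the mTORC1 genes at 48 h (2) no filter but any read called 0 and a depth term 1.

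With the matched columns only, which leaves 2 libraries at 48 h, the calls were 3 at 24 h, 0 at 48 h and 5 among injured groups. Of all genes, 46.1% and 28.8% were then called at 24 h and 48 h. Fbxo30 (-0.037) and Ddit4 (-0.050) at 48 h and Fbxo32 at 48 h against 4 h (-1.01) turned. With the replicate block of library numbers on these columns the calls were 2 at 24 h, 0 at 48 h and 5 among injured groups. Of all genes, 45.7% and 24.7% were then called at 24 h and 48 h. Trim63 (-0.17) and Ddit4 (-0.26) at 48 h and Fbxo32 at 48 h against 4 h (-1.38) turned. Over 124 pairs of the same number the median correlation of deviations was 0.024 (range -0.55 to 0.42). It was -0.0088 over 914 pairs of other numbers, so the median showed no pairing by number. The cause of these changes was not tested.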
